A study of Mus musculus with 8 samples.

Results

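Juvenile mouse testis at 10 days post partum (dpp) was compared between 1 library from Dnmt3c mutant males and 1 library from control males. The 2 libraries were selected by their genotype and age labels from the 8 of the series, and their tables held 17376 genes and 823 repeat families. The mutant library was from Dnmt3C IAP/IAP testis, homozygous for an allele named after the IAP element, and the control library from Dnmt3C IAP/WT testis, so the control genotype carries the same allele in 1 copy. All animals were male hybrids of the strains C3H/HeJ and C57BL/6J, and the RNA of the whole testis was measured, in which germ cells and somatic cells are pooled. The other libraries came from the same 2 genotypes at 16.5 days post coitum (dpc), with 1 library each, and at 20 dpp, with 2 each. The labels do not give the number of animals per library or their litters.

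Dnmt3c encodes a DNA methyltransferase of rodents that acts in fetal male germ cells, where it methylates the promoters of evolutionarily young retrotransposons. LINE-1 elements copy themselves without a long terminal repeat (LTR), whereas IAP and MMERVK elements are LTR retrotransposons related to retroviruses, and promoter methylation is a main means by which germ cells keep them silent. A juvenile testis of this age holds Sertoli cells, Leydig cells, spermatogonia and the first spermatocytes that enter meiosis, before late spermatocytes and spermatids accumulate.

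The comparison asked which repeats and genes differed between the genotypes at an age before late meiotic cells appear. With 1 library per genotype there was no replicate check, and no test was run. Each ratio is mutant over control, computed from reads scaled by the authors' factors (normalised reads), with an exact 95% interval that covers counting error only; amplified reads are not independent molecules, so even this error is a lower limit. A feature was called listed when its ratio reached 2-fold in either direction, its interval excluded 1 and it had at least 50 reads in both libraries together. The mutant library held 64884479 reads on genes, and its control 66947452. Reads on repeat families made up 3.65% (95% Clopper-Pearson interval 3.65 to 3.66) of all counted reads in the mutant and 3.31% (3.31 to 3.32) in the control. Dnmt3c was not analysed here, and no check of the genotypes by its own reads was made. Markers of the labelled tissue were abundant in both libraries, with 16129 and 15945 reads of Ddx4 (germ cells) and 17171 and 16628 reads of Amh (Sertoli cells), in the mutant and the control. The spermatid markers Acrv1 and Prm1 were not measured, and Tnp1 had 27 and 32 reads. Of a list of 28 spermatid genes, 12 were not measured and 11 had at least 100 reads. Among the latter were Hook1, with 7747 and 7719 reads, and Odf2, with 6219 and 6792.

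Of the 823 families, 13 were listed higher in the mutant library (1.58% of families) and 2 were listed lower (0.243%), 1.82% in all. Most of the higher ones were IAP, MMERVK10C or young LINE-1 families, 10 of 13 belonging to these groups. IAPEz-int, the internal part of the most abundant IAP type, had 246320 reads in the mutant and 74542 in the control, a ratio of 3.44 (3.41 to 3.47). MMERVK10C-int, the internal part of another LTR element, had 76965 and 18318 reads, a ratio of 4.37 (4.30 to 4.44). Its LTR partner RLTR10C had 1712 and 814 reads, a ratio of 2.19 (2.01 to 2.38). The internal and LTR parts of this element were thus both higher, and the internal part by more. The 3 listed families outside these groups were sparse: Helitron3Na_Mam had 45 and 21 reads, RLTR9A3A 34 and 16, and MER31-int 61 and 29.

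The rarer IAP families reached larger ratios on few reads. IAPA_MM-int had 107 reads in the mutant and 14 in the control, a ratio of 7.95 with a wide interval of 4.54 to 15.03. IAPLTR2_Mm, an IAP promoter-bearing LTR, had 1132 and 245 reads (ratio 4.81, 4.18 to 5.54), and IAPLTR1_Mm had 72 and 22 reads (ratio 3.40, 2.09 to 5.77). IAPEy-int had 3703 and 1731 reads and IAPLTR2a 234 and 109, with ratios of 2.23 each. IAP LTRs did not all follow: IAPLTR4 had 214 and 247 reads and IAPLTR3 had 9 and 10, both with intervals that included 1. Of the other abundant IAP families, IAP1-MM_I-int had 9655 and 5323 reads (ratio 1.89) and IAP-d-int 2108 and 1236 (ratio 1.77), just under the threshold. IAPEY4_I-int, with 53797 and 44729 reads, and IAPLTR3-int, with 2203 and 2085, were nearer to 1, at 1.25 and 1.10. The IAP copy in the Dnmt3C allele is present in both genotypes, in 2 doses and 1, and its own reads cannot be told apart from those of other copies.

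Among the young LINE-1 families, which in mouse are the A, T and Gf types with CpG-rich promoter monomers, L1Md_A had 52561 reads in the mutant and 21252 in the control (ratio 2.57, 2.53 to 2.61). L1Md_Gf had 3091 and 1433 reads (ratio 2.24, 2.11 to 2.39). L1Md_T, the most abundant of them, had 117542 and 69187 reads, and its ratio of 1.77 (1.75 to 1.78) lay below the threshold. The older F types were near 1, with ratios of 1.13 for L1Md_F, 1.11 for L1Md_F2 and 1.04 for L1Md_F3. The order A, Gf, T, F was therefore separated beyond counting error between these 2 libraries, while the spread between animals is unknown.

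**Figure D1:**
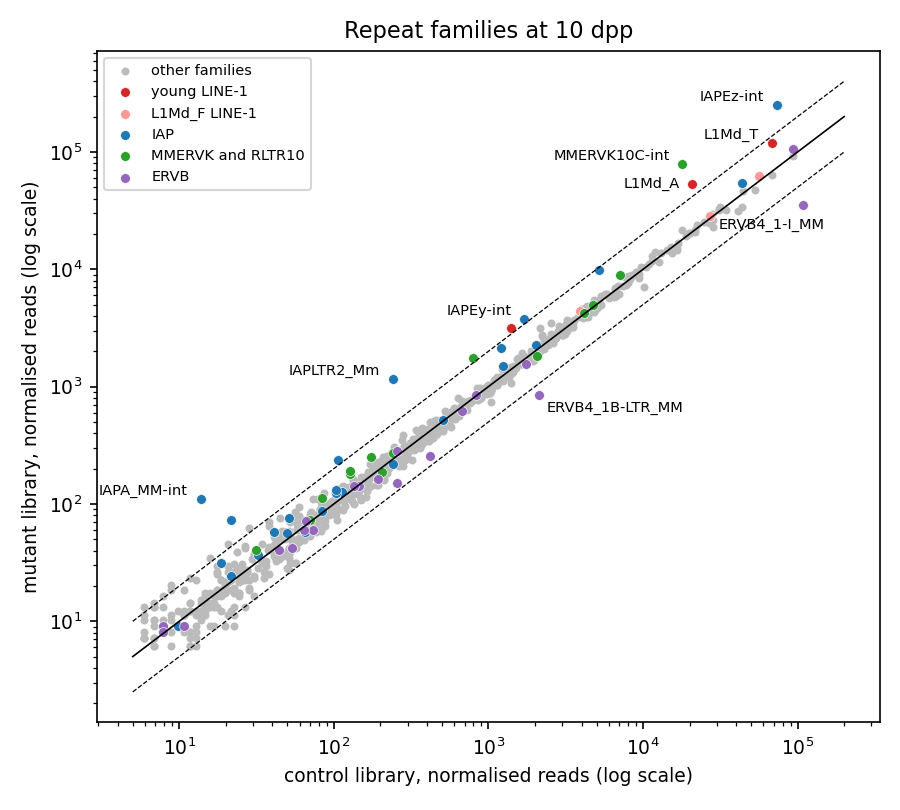
Normalised reads of each of 823 repeat families in the control library (horizontal, log scale) and the mutant library (vertical, log scale) at 10 dpp, 1 point per family, coloured by group. The solid line marks equal values and the dashed lines 2-fold differences; IAPEz-int, MMERVK10C-int and L1Md_A lie above the upper line and ERVB4_1-I_MM below the lower one.

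Summed over families, the IAP group of 25 families had a ratio of 2.52 (2.51 to 2.54) and took 13.1% of family reads in the mutant against 5.79% in the control. In this group 22 of 25 ratios were above 1, with a median log2 ratio of 0.32, whereas 408 of all 823 families were above 1 and their median was -0.0021. The 14 MMERVK and RLTR10 families had a summed ratio of 2.68, and 12 of 14 were above 1. The 3 young LINE-1 families had a summed ratio of 1.96 and took 7.04% of family reads in the mutant against 4.01% in the control. Older LINE-1 families were nearer to 1, with a median log2 ratio of 0.043, although 84 of 121 lay above it.

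Other LTR groups were near 1 or lower. ETn and MusD families, which are also active in mouse, had a summed ratio of 1.08, and the 11 MERVL and MT2 families, known from the 2-cell embryo, had 1.07 with 4 above 1. Most SINE families were slightly lower: none of 15 B1 families and none of 5 B2 and B3 families were above 1, with median log2 ratios of -0.14 and -0.16. The ERVB group had a summed ratio of 0.70, and the deficit of its family ERVB4_1-I_MM alone exceeded that of the whole group. ERVB4_1-I_MM had 34277 reads in the mutant and 111208 in the control (ratio 0.32, 0.317 to 0.325), and its relative ERVB4_1B-LTR_MM had 835 and 2156 (ratio 0.40, 0.372 to 0.437). These were the only 2 families listed lower. The closely named ERVB4_1B-I_MM had 104025 and 95305 reads and a ratio of 1.14.

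A small number of families carried most of the shift in reads. The families above 1 gained 416018 normalised reads together, of which IAPEz-int gave 42.8%, MMERVK10C-int 14.6%, L1Md_T 12.5% and L1Md_A 7.88%. These 4 made up 77.8% of the gain. Over the families below 1 the difference came to -155423 normalised reads, and ERVB4_1-I_MM alone gave 47.7% of it.

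The families listed at 10 dpp were set beside the same families at the other ages, each age being scaled on its own. At 16.5 dpc none of the 13 higher families was listed, where 0.126% of shared families were listed higher and 0.378% lower, and IAPEz-int had 156483 normalised reads in the fetal mutant library and 148380 in its control. L1Md_A had 24779 and 25892 at that age. The fetal ratios of these 2 families were thus 1.05 and 0.957, against 3.44 and 2.57 at 10 dpp. No difference between the ages was tested.

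At 20 dpp, 10 of the 13 higher families had both mutant libraries above both controls, where 38.2% of families shared by the tables did so, and 1 of 13 had both below, where 25.8% did. The 2 mutants at 20 dpp differed widely from each other: IAPEz-int had 105413 and 358762 normalised reads in mutants 1 and 2, while the controls had 67094 and 60528. L1Md_A had the opposite order, with 614653 and 102652 in mutants 1 and 2, and controls at 40364 and 31745. Within a library, IAPEz-int had 4.69 reads per L1Md_A read in the 10 dpp mutant and 3.51 in its control, and 0.171 and 3.49 in the 20 dpp mutants. The 20 dpp controls had 1.66 and 1.91, and the fetal mutant and its control 6.32 and 5.73. Mutant 1 of 20 dpp thus had the lowest balance of all libraries, while mutant 2 was near the 10 dpp control. ERVB4_1-I_MM was lower in the mutant at every age, with ratios of 0.27 at 16.5 dpc, 0.32 at 10 dpp and 0.55 at 20 dpp.

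**Figure D2:**
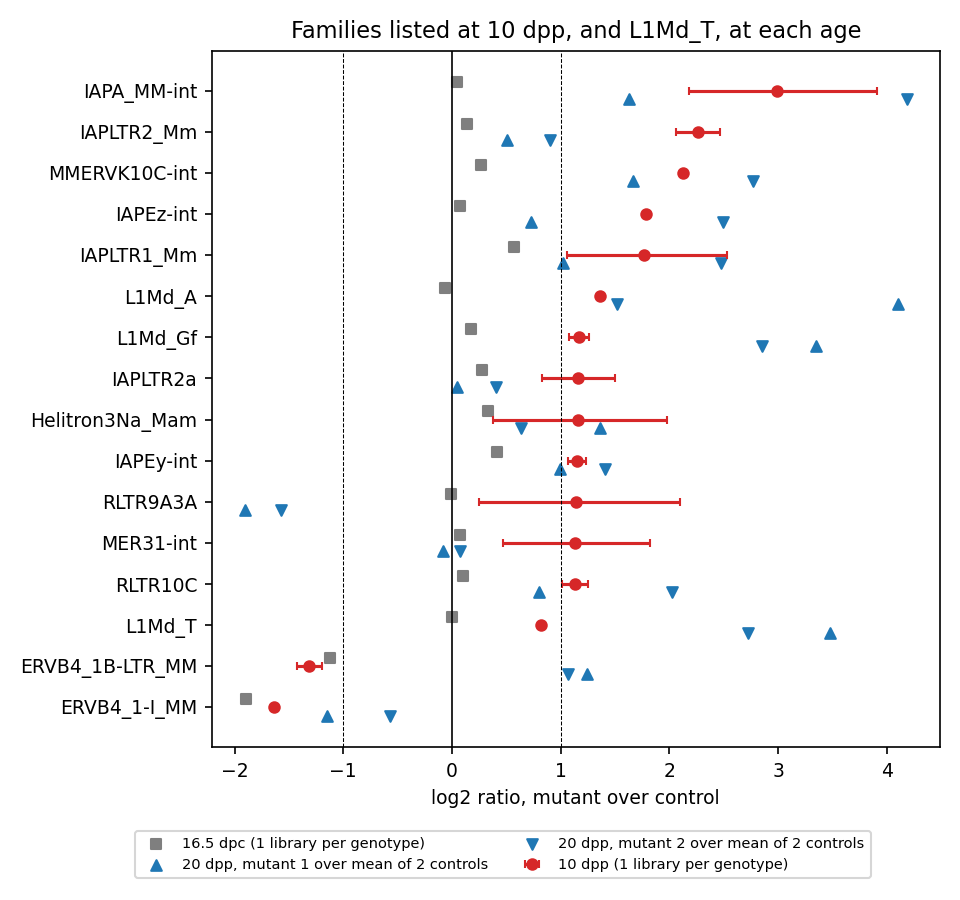
Log2 ratio of mutant over control (horizontal) for the 15 families listed at 10 dpp and L1Md_T (vertical), at 16.5 dpc (squares), 10 dpp (circles, bars are 95% counting intervals) and 20 dpp (triangles, each mutant library over the mean log2 of the 2 controls). The fetal squares of the higher families lie near 0, and the 2 triangles of L1Md_A and of IAPEz-int lie far apart.

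Among genes, 65 of 17376 were listed higher in the mutant library (0.374%) and 89 were listed lower (0.512%), 0.886% in all, and the median log2 ratio of all genes was 7.2e-05. Most listed genes were of low abundance, 38 of the 65 and 66 of the 89 having under 200 reads in both libraries together. Gene expression was thus close between the libraries outside a small set, and repeat families were listed higher more often (1.58%) than genes were; this difference in shares was not tested.

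The gene of the largest ratio, BC051019 on chromosome 7 (mm10, 109712181 to 109723850), had 363 reads in the mutant and 19 in the control (ratio 19.9, 12.5 to 33.4). At 20 dpp it had 363 and 453 normalised reads in mutants, and controls at 22.6 and 53.7 did not overlap them. Cd209c, which encodes a C-type lectin, had 2342 and 723 reads (ratio 3.37, 3.10 to 3.67), and at 20 dpp 6128 and 9867 normalised reads in mutants while controls had 1191 and 1394. Fam181b had 1357 and 439 reads (ratio 3.22, 2.89 to 3.59), but at 20 dpp only mutant 1 stood apart, with 1741 normalised reads against 114 in mutant 2 and 100 and 101 in the controls. BC051019 and Cd209c were thus also separated at 20 dpp, and Fam181b was too, but with 1 mutant close to the controls.

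Spag16, an axoneme protein, had 476 and 97 reads (ratio 5.10), Dnah6, a dynein heavy chain, 140 and 38 (ratio 3.83), and Capn11, a testis calpain, 431 and 99 (ratio 4.53). Col19a1, a collagen chain, had 136 and 9 reads, and Adtrp 125 and 11, with ratios of 15.7 and 11.8. Trim34b, Cdh19, Cntn6 and Ky, with ratios of 3.46 to 3.87, completed the 12 largest ratios among genes with at least 100 reads that are not predicted models. Of the 65 genes listed higher, 58 were in the 20 dpp table, and there 24 were above the controls without overlap (42.3% of all shared genes were) and 19 were below (40.5%). The higher genes of 10 dpp were thus not separated upward at 20 dpp more often than genes in general.

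A further 3 of the abundant higher genes, picked after their values were seen, were Sfi1, Frzb and Stxbp5l. Sfi1, a centrosome protein, had 5419 and 2593 reads (ratio 2.17, 2.07 to 2.28), and 12775 and 22825 normalised reads in the 20 dpp mutants, with controls at 4589 and 4470. Frzb, a secreted Wnt antagonist, had 2503 and 1151 reads (ratio 2.26), and Stxbp5l 1033 and 506 (ratio 2.12). Both were also separated upward at 20 dpp, while their fetal ratios were 1.00 and 1.06.

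Many of the lowest ratios were in genes of duct epithelium, the lining of the epididymis and of the tubules that join it to the testis. Crisp1, a secreted epididymal protein, had 32 reads in the mutant and 1359 in the control, a 40.8-fold lower value (28.8 to 59.9). Spink8, an epididymal protease inhibitor, had 15 and 886 reads, a 56.8-fold lower value (34.2 to 102). Cdh16, an epithelial cadherin, had 69 and 769 reads, and Cldn8, a tight junction protein, had 6 and 157. The duct list had 44 genes, of which 12, among them Lcn5 and Gpx5, were not measured. Of the 32 measured members, 27 were below 1 and 10 were listed lower, with a median log2 ratio of -0.61. Over all genes, 8685 of 17376 were below 1 and 0.512% were listed lower. The 10 duct genes were Spink8, Crisp1, Cldn8, Defb29, Npy6r, Cdh16, Cst11, Krt8, Krt18 and Cst8. The list was chosen with earlier results of these data known, so these counts are not independent evidence.

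Members of the list differed among themselves. Pax2 and Pax8, transcription factors of these ducts, had 166 and 259 reads and 157 and 236 reads, with ratios of 0.67 and 0.69. Epcam, which germ cells express too, had 3413 and 3188 reads and a ratio of 1.11. Cst8, Cst11 and Defb29 lie within 10 Mb of the Dnmt3c locus, as does a further member that was above 1 and did not reach 2-fold. Without the members in that window, 7 of 28 were listed lower and the median was -0.56. At 20 dpp Spink8 varied within each genotype, with 11219 and 37.4 normalised reads in mutants and 1211 and 223 in controls, and the median log2 ratio of the 24 list members measured there was 0.38. How much duct tissue each sample held was not tested. In whole tissue, fewer cells of a type and less RNA per cell cannot be told apart.

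Other genes among the 16 largest falls included Lcn2, a secreted lipocalin (71 and 326 reads), Ehf, an epithelial transcription factor (58 and 225), Rxfp1, the relaxin receptor (18 and 258), and Dnah5, a dynein of motile cilia (84 and 243). Cuzd1, Tmc5, Mlph and Myo3b had 3.34-fold to 11.8-fold lower values. Of the 89 genes listed lower, 70 were in the 20 dpp table; 26 were below the controls without overlap there (40.5% of all shared genes were), 10 were above (42.3%) and 34 overlapped. The share below was thus near or under that of genes in general, and the share above was well under it. Overlap was the most frequent outcome for these genes.

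**Figure D3:**
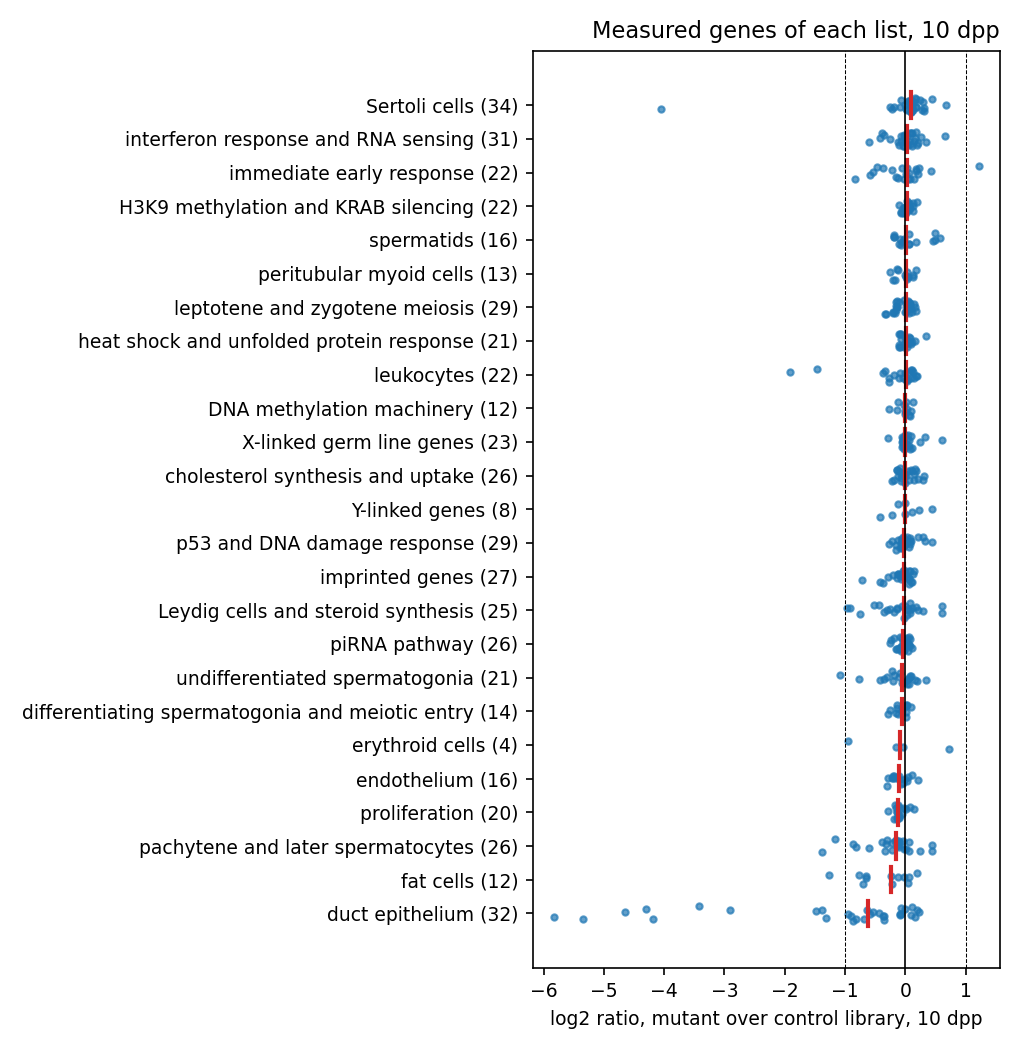
Log2 ratio of mutant over control at 10 dpp (horizontal) for each measured gene (points) of the 25 lists (vertical, number of measured genes in brackets); the red bar is the median of a list. The duct epithelium list has the lowest median, -0.61, and spreads to -5.83, while most lists centre near 0.

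Germ cell lists lay close to the median of all genes, except the list for pachytene and later spermatocytes, which was lower. With 0.886% of all genes listed, less than 1 listed member would be found in each of these lists at that share. A count of 0 in these and the following lists thus says nothing particular about their members. In the list for leptotene and zygotene, the first stages of meiosis, 15 of 29 genes were above 1 and none was listed. Sycp1, a protein of the synaptonemal complex, had 12088 and 11150 reads (ratio 1.13), and Dmc1, the meiotic recombinase, 2030 and 2027 (ratio 1.04). Msh5 and Msh4, which stabilise recombination intermediates, had lower ratios of 0.79 and 0.81. The list for pachytene and later spermatocytes had 20 of 26 genes below 1 and a median of -0.15, and 18 of the 26 had at least 100 reads. Ldhc, a germ cell lactate dehydrogenase, was its only listed member, with 25 and 68 reads, and Ccna1, the meiotic cyclin A, had 49 and 77.

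Spermatogonial genes were also near 1, with single exceptions. Stra8, which starts meiotic entry, had 5776 and 6695 reads (ratio 0.90), and Zbtb16, a marker of undifferentiated spermatogonia, had 6021 and 6659 (ratio 0.94). Pax7, a marker of rare spermatogonia, was listed lower with 29 and 64 reads. Cdh1, Neurog3 and Sall4 had ratios of 0.59, 0.75 and 0.78, whereas Nanos2 had 1.26 on 102 and 84 reads. In the proliferation list 17 of 20 genes were below 1, by small amounts, and Mki67, with 23434 and 29652 reads, was the lowest at 0.82.

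In the DNA methylation list none of 12 genes was listed. Dnmt3b, the neighbouring paralog of Dnmt3c, had 6417 and 6571 reads (ratio 1.02, 0.981 to 1.05), and Dnmt3a, the other de novo enzyme, 17573 and 18349 (ratio 1.00). Dnmt1, the maintenance enzyme, had 18202 and 20810 reads (ratio 0.91), and Uhrf1, its partner, 8832 and 10030 (ratio 0.92). Dnmt3l, the cofactor of de novo methylation, had only 43 and 54 reads. Hells, a chromatin remodeller needed for methylation, had a ratio of 1.05. Tet1, Tet2 and Tet3, which oxidise methylated cytosine, had ratios of 1.10, 1.04 and 1.00, the methylation reader Mbd2 had 1.07, and Uhrf2 had 1.00.

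Genes of other defences against transposons also had medians near 0. None of the 26 piRNA pathway genes was listed, and the lowest were Mov10l1 (ratio 0.84), Gtsf1 (0.85) and Tdrd9 (0.88). None of 22 genes of H3K9 methylation and KRAB silencing was listed. Of 31 genes of the interferon response and RNA sensing none was listed, 16 were above 1 and the median was 0.032 (-0.011 in members with at least 500 reads); Ifit3 reached a ratio of 1.58 on 94 and 62 reads, and Oasl2 had 0.83 on 1088 and 1355. In the p53 list the median was -0.020, and Fas had 1.36.

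Of the somatic lists, the Sertoli cell list had 27 of 34 genes above 1, with a median of 0.10. Sox9, its defining transcription factor, had 13090 and 11000 reads (ratio 1.24), Rhox5 671 and 512 (ratio 1.36) and Drd4 1861 and 1206 (ratio 1.61). Cst9 was the only listed member, and was lower. Leydig cell genes were split: Star, which carries cholesterol into the mitochondrion, had 4686 and 9241 reads (ratio 0.53), and Cyp17a1, an androgen synthesis enzyme, 6264 and 11016 (ratio 0.59). Hsd3b1, in the same pathway, had 16707 and 15399 reads (ratio 1.13), and Insl3 110 and 75 (ratio 1.53). At 20 dpp the 2 controls alone spanned 3451 to 8595 normalised reads of Star, on both sides of the mutants at 6450 and 6974, and for Cyp17a1 12938 to 29221, so both genes vary between libraries of 1 genotype at that age. Endothelial genes were below 1 in 12 of 16 cases (median -0.11), and fat cell genes in 9 of 12 (median -0.23, but 0.053 in members with at least 500 reads). Of the 22 immediate early genes, which respond within minutes to stimulation, 12 were above 1 and the median was 0.023. Nr4a3 and Nr4a1 had ratios of 0.56 and 0.67. Fosl1 had 2.32 but was not listed, as it did not meet the rule on reads or on the interval. Leukocyte genes had a median of 0.0051, and S100a9, a neutrophil protein, was listed lower on 12 and 47 reads.

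A larger share of the genes near the Dnmt3c locus was listed than of all genes, a difference that was not tested. Dnmt3c lies beside Dnmt3b on chromosome 2, and 6 of 227 genes within 10 Mb of the start of Dnmt3b were listed (2.64%), against 152 of 17173 genes with a position (0.885%). Over the whole of chromosome 2, 1.60% of genes were listed. The 6 were Cst8, Cst9, Cst11 and Defb29, lower, and Efcab8 and 9230104L09Rik, higher. Some had few reads: Defb29 had 6 in the mutant and 123 in the control, Efcab8 60 and 24, and 9230104L09Rik 36 and 15. Cst11, Cst8, Cst9 and 9230104L09Rik lie together between positions 148768609 and 148865038, so the 6 are not independent positions. Cst8, Cst11 and Defb29 also belong to the duct epithelium list, of which 7 of 28 members outside the window were listed lower. Whether these 3 genes were lower because of the locus or along with the other duct genes was not tested. Both genotypes descend from 2 strains, so the chromosome segment linked to the allele can carry a different strain haplotype in mutant and control, and the allele and that haplotype cannot be told apart in these libraries.

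**Figure D4:**
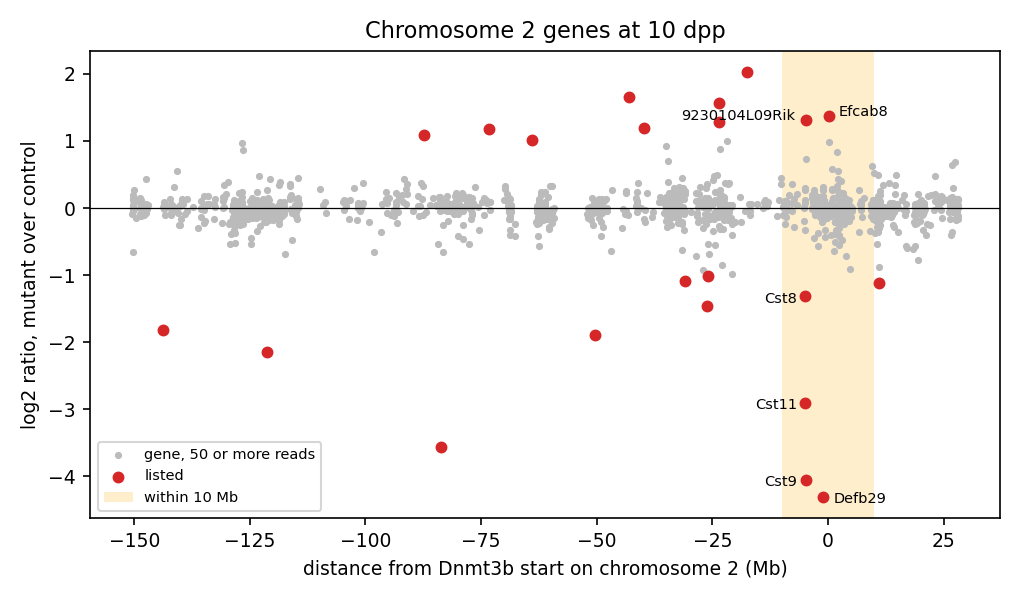
Log2 ratio of mutant over control at 10 dpp (vertical) against distance from the start of Dnmt3b on chromosome 2 in Mb (horizontal), for genes with at least 50 reads; listed genes are red and the 10 Mb window is shaded. In the window Cst8, Cst9, Cst11 and Defb29 lie below -1, and Efcab8 and 9230104L09Rik above 1.

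The cystatin genes, of a family that includes secreted inhibitors of cysteine proteases, form a cluster 4.78 to 4.88 Mb from Dnmt3b. They held the most abundant gene listed in either direction. Cst9 (testatin, a Sertoli cell cystatin; mm10 chromosome 2, 148835147 to 148838738, forward strand) had 1538 reads in the mutant and 26443 in the control, a 16.5-fold lower value (15.7 to 17.4). Cst8 (148798785 to 148805595, forward strand) had 492 and 1273 reads, 2.49-fold lower (2.24 to 2.77), and Cst11 (148768609 to 148771497, reverse strand) 19 and 148, 7.49-fold lower (4.63 to 12.8). Cst3, the widely expressed cystatin C (148871722 to 148875692, reverse strand), was higher in the mutant, with 19144 and 11970 reads (ratio 1.66, 1.63 to 1.70). Cst12, another Sertoli cell cystatin, had 31017 and 26271 reads (ratio 1.23), and Cst13 only 10 and 14. The neighbours in 1 cluster thus differed in opposite directions.

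The bases before the start of Cst9 and Cst8 are shown because both genes were lower in the mutant library, and because a DNA methyltransferase acts on the CG dinucleotide, which is in capitals. They are from the RefSeq promoter table on GRCm38.p6 (the build of mm10), 5′ to 3′ on the forward strand, and end before both the RefSeq and the GENCODE start of the gene: 250 bases at chr2:148834897-148835146 for Cst9 and 196 bases at chr2:148798589-148798784 for Cst8.
Cst9: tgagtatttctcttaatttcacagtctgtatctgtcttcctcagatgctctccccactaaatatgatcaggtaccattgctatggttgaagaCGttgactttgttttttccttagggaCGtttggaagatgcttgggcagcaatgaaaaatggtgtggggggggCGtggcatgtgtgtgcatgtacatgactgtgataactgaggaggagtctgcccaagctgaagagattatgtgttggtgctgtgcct
Cst8: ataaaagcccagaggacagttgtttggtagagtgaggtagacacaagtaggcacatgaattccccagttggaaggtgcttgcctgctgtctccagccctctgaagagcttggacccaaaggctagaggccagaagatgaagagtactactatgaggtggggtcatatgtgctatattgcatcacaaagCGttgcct
The dinucleotide CG, which reads the same on both strands, occurred 3 times before Cst9 and 1 time before Cst8. Over the 27025 promoters of that table, each taken as 250 bases, the median was 6, and 38.1% had no more than Cst9 had. Methylation was not measured in these libraries.

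The cystatin differences were present at each age. At 16.5 dpc Cst9 had 785 normalised reads in the mutant library and 6435 in its control, and at 10 dpp 1569 and 25928. At 20 dpp the mutants had 7574 and 5340, and the controls 24781 and 28424. Cst8 had 929 and 3741 at 16.5 dpc, 502 and 1248 at 10 dpp, and 383 and 162 against 1183 and 942 at 20 dpp. Cst3 was higher in each mutant, with log2 ratios of 0.61, 0.73 and 0.66 at the 3 ages. At 20 dpp, the only age with 2 libraries per genotype, mutant and control values of these 3 genes did not overlap. Among all shared genes, 42.3% had both mutants above both controls at 20 dpp and 40.5% had both below.

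**Figure D5:**
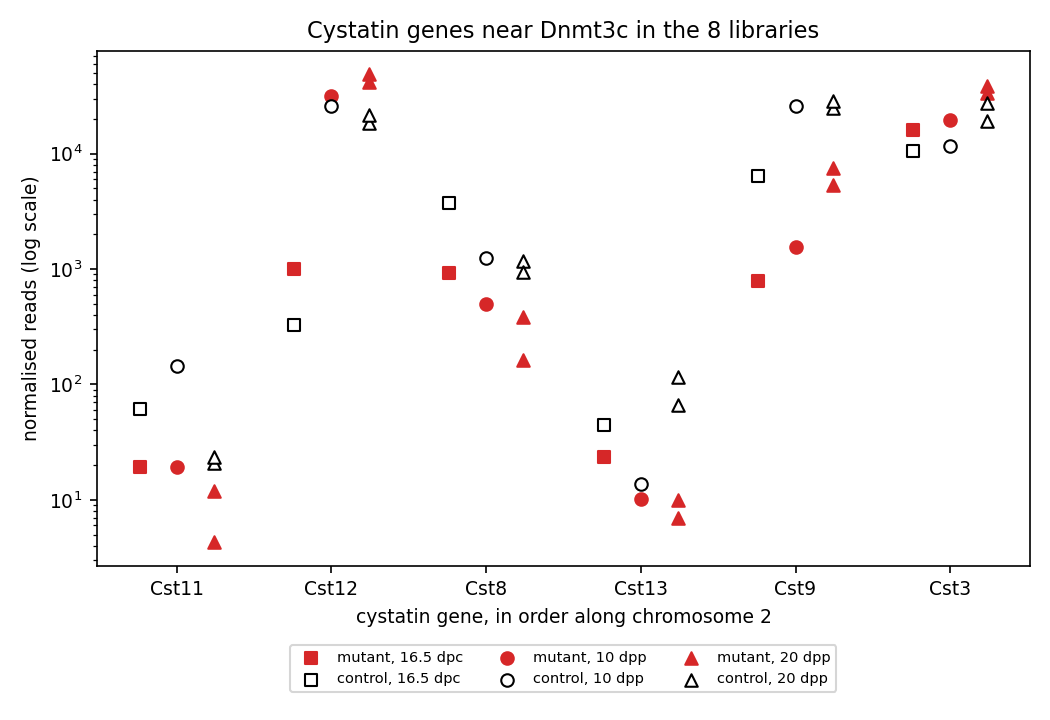
Normalised reads (vertical, log scale; each age scaled on its own) of the 6 cystatin genes in their order along chromosome 2 (horizontal) in all 8 libraries; filled red symbols are mutants, open symbols controls, and the shape gives the age. At each age Cst9, Cst8 and Cst11 lie lower in mutants than in controls, and Cst12 and Cst3 higher.

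Across the genes measured at 16.5 dpc and 10 dpp, 144 were listed at 10 dpp and 100 at 16.5 dpc (0.408% of genes higher and 0.183% lower at the fetal age). Listed at both ages were 8 genes, of which 5 went in the same direction (3.47% of the first list and 5% of the second). These 5 were Cst8, Cst9, Cst11 and Tgm3, all on chromosome 2, and 2010005H15Rik. The rest of the 8 were listed in opposite directions. Among them was Trim34b, with a ratio of 3.87 at 10 dpp and 0.47 (0.264 to 0.822) at 16.5 dpc. Of 14785 genes with at least 100 reads at 10 dpp and an entry at the other ages, 11 differed at least 1.5-fold in the same direction at all 3 ages with separated libraries at 20 dpp. Of the 11, 6 were on chromosome 2 within 10 Mb of Dnmt3b (Cst3, Cst8, Cst9, Cst11, Myh7b and Tox2). That window held 1.32% of all genes with a position, and 7.81% of the genes considered were on the chromosome. Cst3, Cst8, Cst9 and Cst11 lie in 1 cluster, so the 6 are not independent positions. The other 5 of the 11 were Aldh3a1, Cd8a, Drd4, Kirrel2 and A530072M11Rik, all but Cd8a higher in mutants. Some fetal values were low: Drd4 had 28.1 and 18.2 normalised reads at 16.5 dpc and Aldh3a1 had 25.5 and 13.7, and the counting intervals of both fetal ratios included 1.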

How the data were processed

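Whole testis RNA was extracted with Trizol and treated with DNase, per the labels' protocols. The authors deposited log2 values for genes and, in a separate table, for repeat families. The submitters' processing notes name the build mm10 and, without roles, TopHat2 2.0.6, Bowtie 1.0.0 and HTSeq 0.6.1. Annotation, strandedness and the handling of multiply mapped reads were not given in the sources used here, and similar families, paralogs or overlapping genes can therefore share reads. The deposited values equalled log2(reads / factor + 1) with a factor per library, and 100% of the recovered reads were whole within 0.01. The lowest count was 6 in both 10 dpp libraries, so features near silence in either are not in the tables. Unassigned repeats (188 and 167 reads) were left out.

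Reads were divided by the factors in the deposited values (mutant 0.981, control 1.02). Ratios and exact conditional binomial 95% intervals were computed in Python 3.11.15 with SciPy 1.17.1 and tested on simulated counts. With 1 library per genotype no test was run, and no adjusted p-values exist. Values at 20 dpp were called separated when both mutants lay on one side of both controls. Gene positions are from GENCODE M21, on the same build, for 17173 genes.

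The comparison, its members, the 25 gene lists and the 17 repeat groups were chosen with earlier results of these data known, so no list is independent evidence. Name patterns of some repeat groups were corrected after the tables were seen, because they caught unrelated families. Families named are those listed at 10 dpp, the A, T, Gf and F types of L1Md and the 6 most abundant IAP families. Genes named are the 12 largest rises and 16 largest falls among listed genes with at least 100 reads, leaving out predicted models, the DNA methylation list (1 member is not reported here), every listed member of a list, and the 3 members of each other list with the largest ratios and intervals excluding 1; others are named as markers, neighbours on chromosome 2 or members of counts. Alternatives covered scaling, fold threshold, read filter, the log2(value + 1) scale, the denominator of shares and the window on chromosome 2.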

Additional observations from a re-analysis of the deposited data

Results flagged for a closer look

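Of the features named above, 10 were listed in one direction at 10 dpp and had both 20 dpp mutants on the other side of both controls. In each case the difference between the ages was not tested. Among repeats, ERVB4_1B-LTR_MM had a log2 ratio of -1.31 at 10 dpp and 1.16 at 20 dpp, and RLTR9A3A had 1.14 and -1.74, on 34 and 16 reads at 10 dpp. Spag16 had a log2 ratio of 2.35 at 10 dpp and -5.21 at 20 dpp, where the controls held 17403 and 16083 normalised reads and the mutants 580 and 353. Dnah6 had 1.94 and -6.45, and Capn11 2.18 and -4.96. On chromosome 2, Efcab8 had 1.38 and -5.26, and Tgm3 1.56 and -3.64. Adtrp had 3.56 and -2.09, Cntn6 1.79 and -1.52, and Col19a1 3.97 and -0.99. Among the genes shared by the 10 and 20 dpp tables, 40.5% had mutants below controls at 20 dpp.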

How the results depend on the processing

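Ratios compare 2 libraries, and the spread between animals at 10 dpp is unknown. No paired analysis was possible because each genotype has 1 library at 10 dpp and no result comes from a test; no library could be left out. The 3 other scalings moved every log2 ratio by -0.012 to 0.0021, and listed 15 families and 155 genes against 15 and 154. All 23 families and 112 genes followed one by one stayed within their counting intervals under these scalings and on the log2(value + 1) scale. With a 1.5-fold threshold 32 families (23 higher, 9 lower) and 442 genes (179 higher, 263 lower) were listed, and with a 4-fold threshold 3 families (3 higher, 0 lower) and 27 genes (12 higher, 15 lower). With at least 500 reads, 9 families (7 higher) and 26 genes (14 higher, 12 lower) were listed, and without a filter 251 genes (101 higher, 150 lower). The share of young LINE-1, IAP, MMERVK and RLTR10 reads was 2.32 times that of the control over all counted reads and 2.11 times over family reads alone. In each setting 6 lists had medians beyond 0.1 from 0, not always the same lists. Medians of the lists for DNA methylation, leptotene and zygotene, leukocytes, X-linked genes and heat shock, all within 0.02 of 0, changed sign with the scaling. In members with at least 500 reads the fat cell median went from -0.23 to 0.053, the erythroid one from -0.095 to 0.72 and the interferon one from 0.032 to -0.011, and those of undifferentiated spermatogonia and spermatids changed sign near 0. A window of 20 Mb held 8 listed genes, against 6 in 10 Mb. Without the members within 10 Mb of Dnmt3b, an alternative chosen after seeing the data, 7 duct genes were listed lower, against 10.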
